A study of Mus musculus with 16 samples.

Results

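Macrophages treated with thrombin-activated platelets were compared with macrophages treated with thrombin alone, so that the groups differed by the platelets while both received thrombin. The comparison used 8 of the 16 libraries of the series, chosen by their labels, with 4 libraries in each group. All cells were bone marrow-derived macrophages from mice labelled C57BL6/J, which are macrophages grown from marrow in culture, here for 7 days in medium conditioned by L929 cells as the source of the growth factor M-CSF. Then 400000 macrophages were plated, kept for 4 hours in 0.5% fetal calf serum, and treated for 4 hours. The other 8 libraries, 4 from cells given the vehicle PBS and 4 from cells given resting platelets without added thrombin, supplied the same estimate of spread and a second platelet effect, without thrombin. The thrombin dose is uncertain: the treatment protocol gives 0.01 U/mL for both thrombin and activated platelets, the sample labels of the thrombin group give 0.1 U/mL, and the labels of the activated platelet group give no dose. The groups may therefore differ in thrombin dose as well as in platelets, and these cannot be told apart here. The number of platelets, whether they were washed off before RNA extraction, and whether the replicates came from separate mice or cultures are not stated in the labels. P-values consequently measure the spread between these libraries, which may be partly technical.

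Platelets are the anucleate cell fragments that plug damaged vessels. Thrombin, the protease at the end of the coagulation cascade, cleaves receptors on the platelet surface, and the platelet then exposes adhesion molecules and secretes growth factors, chemokines, nucleotides, serotonin and lipid mediators from its granules and membranes. Macrophages carry receptors for many of these, clear platelets and other cells from the blood clot, and release the cytokines and growth factors of inflammation and wound repair. CD14 is a co-receptor that presents bacterial lipopolysaccharide to Toll-like receptor 4, and IL-1beta is an inflammatory cytokine. PPARgamma is a lipid-activated transcription factor of macrophage fatty acid handling, and transglutaminase 2 crosslinks proteins and takes part in the uptake of dying cells. Platelets carry RNA of their own, so a bulk library of such a culture holds macrophage and platelet transcripts together. In such libraries, fewer cells of a type and less RNA per cell cannot be told apart.

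The thrombin libraries held 23148856 to 26716684 counts and the activated platelet libraries 28034747 to 30602414. Transcripts of macrophage identity took 2.24% ± 0.168 of counts with thrombin and 2.38% ± 0.193 with activated platelets (SD, n = 4), ranges that overlapped (exact permutation p = 0.343, and 0.495 adjusted over 8 marker lists), while the share was higher in 4 of 4 pairs of libraries with the same replicate number. Stromal transcripts were present in every library, at 0.346% to 0.707% of counts with thrombin and 0.304% to 0.674% with activated platelets, higher in replicates 1 and 4 than in replicates 2 and 3 of both groups. Col1a1, which encodes a chain of type I collagen, stood at 1527 ± 477 CPM with thrombin and 1440.0 ± 493 CPM with activated platelets (SD, n = 4). The first principal component of these 8 libraries held 58.5% of the variance and set the groups apart, from -25.2 to -18.6 with thrombin and from 21.7 to 22.7 with activated platelets. The second held 19.9% and set replicate 1 of both groups apart, at 20.6 and 21.9. Replicate 1 also differed from the others in sex-linked genes. Its 4 libraries, 1 of each treatment, had Xist at 0.0715 to 1.06 CPM and Ddx3y at 85.0 to 93.1 CPM. Replicates 2 to 4 had Xist at 1055 to 1291 CPM and Ddx3y at 0 to 0.269 CPM. Libraries of the same number deviated together from their group means (r from 0.367 to 0.613 between thrombin and activated platelet libraries), and the number was used as a block in an alternative fit.

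Adding activated platelets changed 3960 of 15610 tested genes at an adjusted p under 0.05, which is 25.4% of the genes (edgeR quasi-likelihood test, Benjamini-Hochberg over all tested genes). Of them, 1850 rose (11.9% of tested genes) and 2110 fell (13.5%). Most of the changes were small: 86.1% of them were under 2-fold, the median size was 0.34 on the log2 scale, and 298 genes rose and 252 fell by at least 2-fold. The median log2 fold change of all tested genes was -0.0037. With the replicate number as a block, 6501 genes passed, 3057 higher and 3444 lower (41.6% of tested genes), and 3957 of the 3960 genes were again among them, all in the same direction. Without the 4 libraries of replicate 1, 2422 genes passed. Each fold change below is on the log2 scale of the edgeR fit, and each level is in CPM (counts scaled to a common library size, with TMM factors). Values after ± are the SD over the 4 libraries of a group. A gene is said to rise or fall only where it passed this threshold. Counts of list members below are to be read against the shares of all tested genes. Of these, 11.9% rose and 13.5% fell, or 19.6% and 22.1% with the replicate block.

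**Figure D1:**
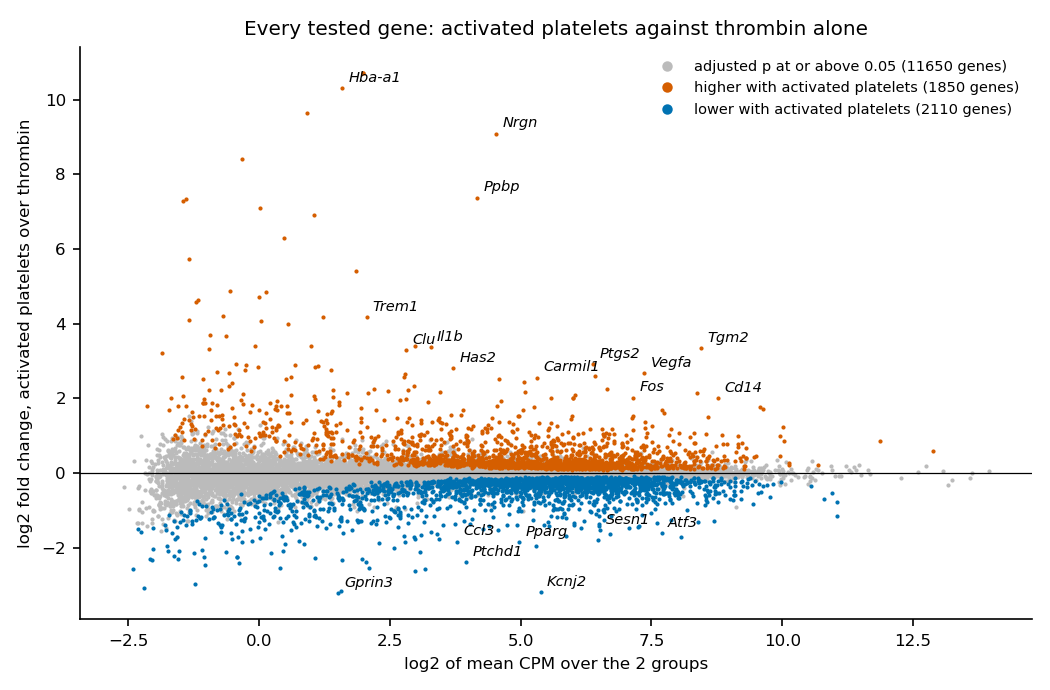
Log2 fold change of every tested gene, activated platelets over thrombin (y), against the log2 of its mean CPM over the groups compared (x); each point is 1 gene, and colours mark the 1850 genes that rose, the 2110 that fell and those that did not pass. Most coloured points lie within 1 log2 unit of 0, while the platelet transcripts Nrgn and Ppbp and the red cell transcript Hba-a1 lie far above the rest.

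The 4 genes taken as markers of this comparison, with earlier results of these data known, separated the groups without overlap, as 25.4% of all tested genes did. Cd14 (chr18:36858117-36859868, minus strand, GRCm39) was measured at 171, 162, 182 and 182 CPM in thrombin libraries 1 to 4 and at 713, 688, 703 and 698 CPM in activated platelet libraries 1 to 4. The 4 libraries of each group lay close together and the groups far apart, a 4.02-fold rise (log2 fold change 2.01, SE 0.06, adjusted p = 6.36e-12). Tgm2 (chr2:157958325-157988312, minus strand) stood at 58.1, 48.4, 62.8 and 77.9 CPM with thrombin and at 624, 508, 591 and 808 CPM with activated platelets, a 10.2-fold rise (log2 fold change 3.36, SE 0.21, adjusted p = 1.18e-08). In both groups replicate 4 was the highest and replicate 2 the lowest, so the libraries of 1 number moved together. Il1b (chr2:129206490-129213059, minus strand) was low throughout, at 1.6, 1.42, 2.33 and 1.51 CPM with thrombin and 13.7, 19.4, 20.8 and 17 CPM with activated platelets, and rose 10.4-fold (log2 fold change 3.38, SE 0.29, adjusted p = 4.29e-07). Pparg (chr6:115337840-115467365, plus strand) went the other way, from 45.4, 56.2, 49.4 and 45.5 CPM with thrombin to 12, 13.6, 13.5 and 15.3 CPM with activated platelets, 3.62-fold lower (log2 fold change -1.85, SE 0.10, adjusted p = 2.46e-09).

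**Figure D2:**
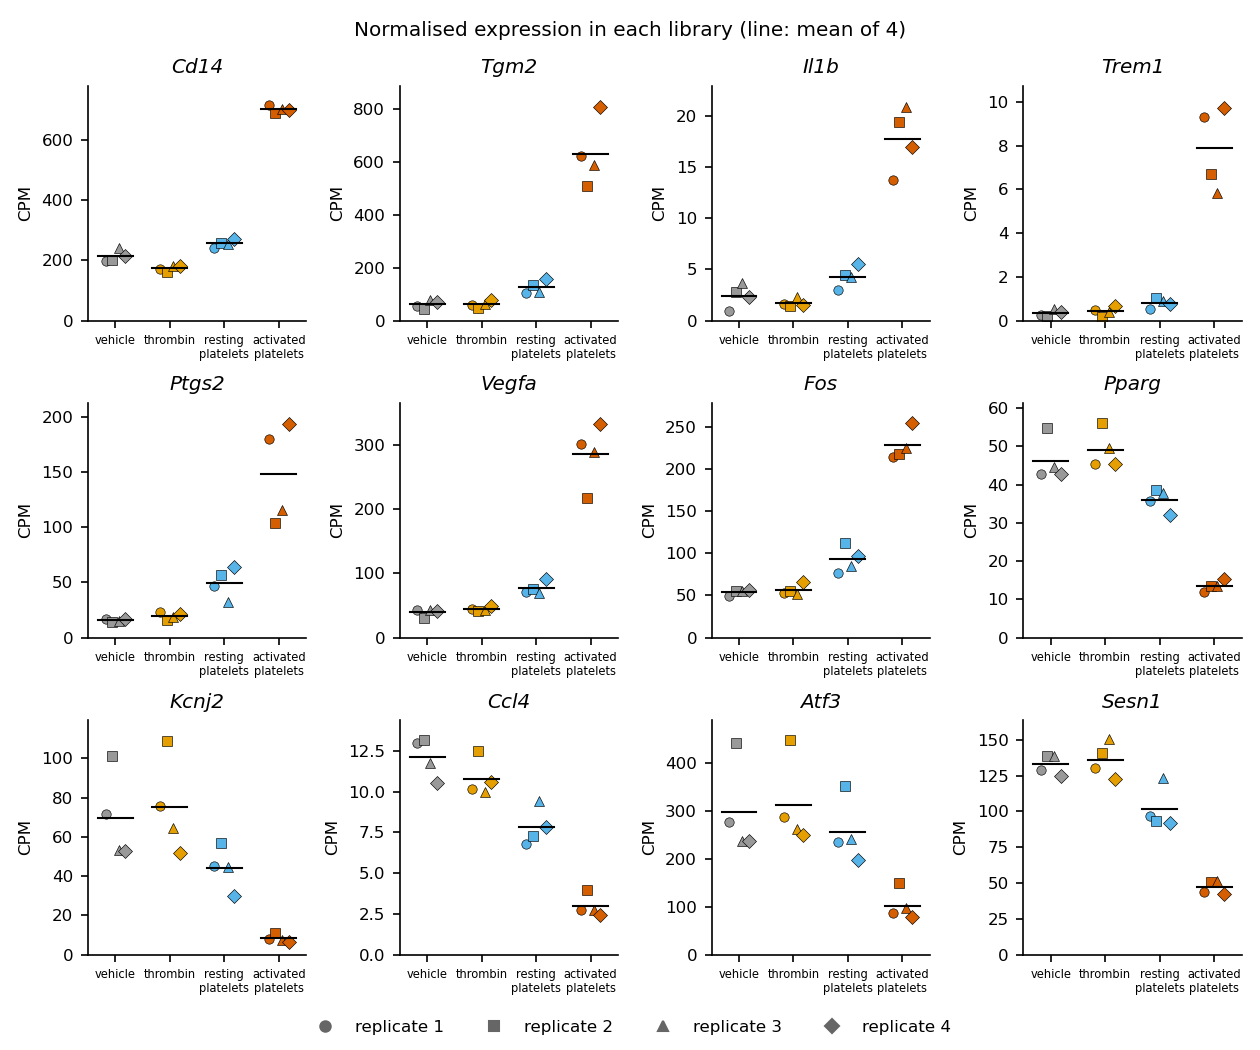
Expression in CPM (y, from 0) of 12 genes in each of the 16 libraries, by group (x); points are single libraries, marker shapes give the replicate number and lines the mean of 4. For Cd14, Tgm2, Il1b, Trem1, Ptgs2, Vegfa and Fos the 4 activated platelet libraries lie above all 4 thrombin libraries, and for Pparg, Kcnj2, Ccl4, Atf3 and Sesn1 they lie below.

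The largest rise outside the platelet and red cell lists, among genes at 5 CPM or more in the higher group, was in Trem1, a receptor that amplifies inflammatory signalling in myeloid cells. It stood at 0.481, 0.154, 0.396 and 0.679 CPM with thrombin and at 9.3, 6.68, 5.82 and 9.74 CPM with activated platelets (log2 fold change 4.19, SE 0.30, adjusted p = 5.66e-08). It was close to undetected in the first group and low in the second. Clu, which encodes the secreted chaperone clusterin, rose from 1.3 ± 0.194 to 12.7 ± 2.03 CPM (SD, n = 4; log2 fold change 3.29, SE 0.22, adjusted p = 2.92e-08). With activated platelets Clu was highest in replicate 2, as was the platelet transcript Nrgn. Its macrophage or platelet origin was not tested. Ptgs2, the inducible cyclooxygenase of prostaglandin synthesis, stood at 23.3, 15.6, 18.6 and 21.5 CPM with thrombin and 179.6, 104, 116 and 193 CPM with activated platelets (log2 fold change 2.91, SE 0.22, adjusted p = 1.45e-07). Vegfa, the main growth factor of blood vessels, went from 45.1, 41, 43.2 and 49 CPM to 301, 218, 289 and 332 CPM, a 6.39-fold rise (log2 fold change 2.68, SE 0.14, adjusted p = 1.78e-09). Has2, a hyaluronan synthase, rose 7-fold, from 2.73, 2.73, 2.9 and 4.71 CPM to 23.6, 15.9, 19.4 and 33 CPM (log2 fold change 2.81, adjusted p = 5.48e-07). Trem1, Ptgs2, Vegfa and Has2 with activated platelets were highest in replicates 1 and 4, the replicates with the larger stromal share, while Clu was not. The part of stromal cells in these values was not tested. These genes were chosen among those whose groups did not overlap. Within every replicate number the activated platelet library thus had to lie above its thrombin library.

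Other large rises were in genes of varied function. Nt5e, the ectoenzyme CD73 that makes adenosine from AMP, rose from 1.91 ± 0.95 to 11.9 ± 2.22 CPM (SD, n = 4; log2 fold change 2.64, adjusted p = 1.38e-05). Carmil1, a regulator of actin capping protein, rose 5.88-fold, from 11.6 ± 1.75 to 68.2 ± 3.33 CPM, with little spread between libraries (log2 fold change 2.56, SE 0.10, adjusted p = 1.11e-10). Spsb1, an adaptor of a ubiquitin ligase, rose from 10.4 ± 1.8 to 56.3 ± 3.81 CPM (log2 fold change 2.43, adjusted p = 6.77e-10). Ctla2a, a cysteine protease inhibitor, rose from 24 ± 4.56 to 147 ± 21.5 CPM (log2 fold change 2.61, adjusted p = 6.04e-08). It has a near-identical neighbour, Ctla2b, whose reads the counting could have shared with it. Ctla2a too was highest in replicate 2 with activated platelets, and its macrophage or platelet origin was not tested. Acod1, the enzyme that makes itaconate, passed the test (log2 fold change 2.34, SE 0.56, adjusted p = 0.00542), but its value rested on 1 library. It stood at 4.79, 33.6, 7.97 and 5.9 CPM in activated platelet libraries 1 to 4 against 2.49, 2.81, 2.11 and 2.87 CPM with thrombin. Without activated platelet replicate 2 its log2 fold change was 1.27 (adjusted p = 0.0127). With limma-voom it did not pass (1.84).

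The 12 largest falls were in genes of varied function. Kcnj2, an inward rectifier potassium channel that sets the resting membrane potential, stood at 75.9, 109, 64.4 and 52 CPM with thrombin and at 7.87, 11, 7.65 and 6.55 CPM with activated platelets, 9.11-fold lower (log2 fold change -3.19, SE 0.28, adjusted p = 5.37e-07). Replicate 2 was the highest library in both groups, and the groups did not overlap, as the rule for the largest falls required. Gprin3 fell from 5.18 ± 2.94 to 0.546 ± 0.35 CPM (log2 fold change -3.22, adjusted p = 0.000483) and Lrrc14b from 5.3 ± 0.578 to 0.595 ± 0.161 CPM (log2 fold change -3.15, adjusted p = 7.36e-08). Ptchd1 fell from 26.2 ± 7.77 to 5.02 ± 1.99 CPM and Rasgrp3, an activator of Ras proteins, from 13.8 ± 4.32 to 3.17 ± 0.593 CPM (-2.38 and -2.12 on the log2 scale, adjusted p = 4.16e-05 and 3.12e-05). Map2k6, a kinase upstream of p38, stood at 7.58, 8.51, 8.22 and 6.34 CPM with thrombin and 1.94, 2.11, 2.12 and 2.16 CPM with activated platelets (log2 fold change -1.88, SE 0.13, adjusted p = 5.66e-08). Rspo2, a secreted activator of Wnt signalling, and Adamts5, a protease of cartilage proteoglycan, fell by log2 fold changes of -2.62 and -2.58. Both were highest in replicates 1 and 4 in the thrombin group, at 21.4, 6.85, 10.3 and 15.8 CPM for Rspo2 and 27, 8.01, 8.44 and 18.1 CPM for Adamts5. Gprin3 and Lrrc14b too were highest in these replicates with thrombin, at 9.34, 3.23, 2.99 and 5.17 CPM for Gprin3. The stromal share was highest in the same replicates, and the part of stromal cells in these values was not tested. The other genes among the 12 largest falls were Abcg3, a transporter gene (7.33 ± 1 to 1.26 ± 0.56 CPM, log2 fold change -2.54), Armc2 (-2.33), Fam214a (-1.96) and Ptx3, which encodes a soluble pattern recognition protein (6.51 ± 2.68 to 1.3 ± 0.495 CPM, -2.32).

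Immediate early genes, the transcription factors that cells induce without new protein synthesis, rose more often than they fell: 13 of 22 tested members rose, 2 fell and 7 did not pass, with a median log2 fold change of 0.65. Of all tested genes 11.9% rose and 13.5% fell. Fos, a subunit of the transcription factor AP-1, stood at 52.5, 54.7, 51.7 and 66 CPM with thrombin and 214, 218, 225 and 255 CPM with activated platelets (log2 fold change 2.02, SE 0.11, adjusted p = 2.33e-09). Fosl2, another Fos family subunit, rose from 72.7 ± 6.37 to 209 ± 33.8 CPM (log2 fold change 1.52, adjusted p = 8.55e-08). The nuclear receptors Nr4a1 (1.68) and Nr4a3 (2.88, and 3.91 without thrombin replicate 4) rose at low levels, with Nr4a1 at 2.22 ± 0.244 and 7.14 ± 1.93 CPM. Atf3, a stress-induced factor of the same leucine zipper class as Fos, fell 3.04-fold, from 287, 448, 262 and 249.9 CPM to 86.2, 149, 96.7 and 78.8 CPM (log2 fold change -1.60, SE 0.26, adjusted p = 0.000237). Replicate 2 was the highest library in both groups. Egr1 stood at 14.9 ± 2.87 CPM with thrombin and 14.8 ± 3.53 CPM with activated platelets (log2 fold change -0.013, adjusted p = 0.971). Immediate early genes thus did not all move one way, and the second gene that fell, Ier5 (-0.18, adjusted p = 0.0139), did not pass without thrombin replicate 2 (-0.14) or without activated platelet replicate 1 (-0.16). The other members that rose were Btg2, Csrnp1, Fosb, Ier2, Ier3, Junb, Maff, Nr4a2 and Zfp36.

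AP-1 dimers of Fos and Jun proteins bind the letters TGACTCA, which read TGAGTCA on the other strand. The promoters of the genes that moved at least 2-fold were searched for these letters on both strands, in the 250 bases before each RefSeq transcription start (build GRCm38.p6, to which the coordinates in this paragraph refer). The letters occurred in 11.6% of the promoters of genes that rose at least 2-fold (31 of 267 promoters, from 210 of the 298 genes with an entry). They occurred in 6.07% of the promoters of genes that fell at least 2-fold (15 of 247), in 3.52% of the promoters of all tested genes (501 of 14248) and in 4.46% of all 32851 promoters in the table. The cAMP response element TGACGTCA, which does not contain the AP-1 letters, was found in 0.375% of the promoters of risen genes against 2.42% of those of all tested genes, and an NF-kappaB motif, the letters GGGA and TTCC with any 2 bases between them, in 0.375% against 1.31%. Both were searched on both strands. A match describes letters and not a bound site. The 298 risen genes include platelet and red cell transcripts such as Nrgn and Hba-a1, whose part in these shares was not tested. The stretches below, chosen after the values were seen as promoters of genes that rose, show the motif in its context. The AP-1 letters, or their reverse complement, are in capitals:
Ctla2a, chr13:60936721-60936781, minus strand: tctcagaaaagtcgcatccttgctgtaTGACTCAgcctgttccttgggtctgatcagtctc
Ctla2b, chr13:60897557-60897617, minus strand: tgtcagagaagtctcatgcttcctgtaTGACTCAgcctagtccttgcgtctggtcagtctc
Lif, chr11:4257318-4257373, plus strand: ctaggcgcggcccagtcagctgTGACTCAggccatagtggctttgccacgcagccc
Cyth1, chr11:118212929-118212981, minus strand: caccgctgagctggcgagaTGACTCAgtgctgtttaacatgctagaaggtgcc
Gpr35, chr1:92978692-92978752, plus strand: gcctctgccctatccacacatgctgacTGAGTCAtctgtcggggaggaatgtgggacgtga
Sphk1, chr11:116531760-116531820, plus strand: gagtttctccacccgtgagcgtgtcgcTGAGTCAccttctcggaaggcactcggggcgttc
F11r, chr1:171437425-171437485, plus strand: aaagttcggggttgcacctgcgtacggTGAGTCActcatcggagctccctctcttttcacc
Ctla2a and Ctla2b, the neighbouring protease inhibitors named above, hold the motif in nearly the same sequence context. Lif encodes a cytokine of the IL-6 type and rose from 9.7, 7.62, 10.1 and 14.4 CPM to 38.4, 24, 34.8 and 47.5 CPM (log2 fold change 1.79, adjusted p = 3.44e-05). Its replicates 1 and 4 with activated platelets were the highest, as for the stromal share. Cyth1, an exchange factor of ARF GTPases, rose from 74.5 ± 6.75 to 207 ± 11.3 CPM (log2 fold change 1.47, adjusted p = 1.78e-09). Sphk1, which makes the lipid mediator sphingosine 1-phosphate, stood at 2.82 ± 0.22 CPM and 7.6 ± 1.92 CPM (log2 fold change 1.43, adjusted p = 2.01e-05). Gpr35, a receptor of macrophages and gut cells, and F11r, a junctional adhesion molecule, rose by 1.47 and 1.21 on the log2 scale, and Ctla2b by 2.01.

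Cytokine and NF-kappaB genes rose in part: 7 of 16 tested members rose and none fell, with a median of 0.24. Bcl3, a nuclear IkappaB protein, rose from 20.6 ± 2.07 to 39.7 ± 7.33 CPM (log2 fold change 0.94, SE 0.11, adjusted p = 8.77e-06). The other members that rose were Il1a, Il1b, Nfkb1, Nfkb2, Relb and Sod2. Tnf, the gene of the cytokine TNF, did not pass, at 11.6, 12.6, 9.98 and 10.3 CPM with thrombin and 10.5, 22.2, 10.7 and 9.36 CPM with activated platelets (log2 fold change 0.25, adjusted p = 0.495). In the second group replicate 2 alone was high. This count moved with the fit: with the replicate block 10 rose and 1 fell. Leaving out thrombin replicate 1 or activated platelet replicate 2 or 3 left 3 rises, and leaving out thrombin replicate 2, 3 or 4 left 4. Of the 14 tested genes of the IL-1 family and the inflammasome, the protein complex that cuts IL-1beta into its active form, 5 rose and 3 fell, with a median of 0.10. Il1rn, the antagonist of the IL-1 receptor, rose from 35.2 ± 3.72 to 64.4 ± 5.29 CPM (log2 fold change 0.87, SE 0.072, adjusted p = 3.06e-07). Casp1, the protease of the inflammasome, fell from 90.8 ± 5.94 to 65.3 ± 8.42 CPM (log2 fold change -0.48, adjusted p = 0.000528). Pycard, the adaptor that joins sensor and protease, fell by a small amount (40.9 ± 3 to 34.5 ± 1.43 CPM, log2 fold change -0.25, adjusted p = 0.00509), and the DNA sensor Aim2 fell too. The inflammasome sensor Nlrp3 rose from 29.5 ± 3.46 to 46.2 ± 8.36 CPM (log2 fold change 0.65, adjusted p = 0.00072). Genes of the cytokine and of its natural inhibitor thus rose together, Il1b by the larger factor (10.4-fold against 1.83-fold).

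Chemokines, which attract leukocytes, moved in both directions, with 7 rises and 2 falls among 15 tested and a median of 0.57. Cxcl16, a membrane-anchored ligand of CXCR6, rose from 305 ± 20.5 to 611 ± 73.3 CPM (log2 fold change 1.0, SE 0.085, adjusted p = 3.81e-07). Cxcl14, another chemokine, rose from 47.3 ± 2.89 to 98.5 ± 8.44 CPM (log2 fold change 1.06, adjusted p = 1.18e-08). The members that fell were Ccl3 and Ccl4, neighbouring genes of the monocyte-attracting chemokines MIP-1alpha and MIP-1beta. Ccl3 stood at 24, 24.5, 20.4 and 16.9 CPM with thrombin and 4.67, 9.39, 5.75 and 4.18 CPM with activated platelets (log2 fold change -1.84, SE 0.22, adjusted p = 1.22e-05). Ccl4 fell from 10.8 ± 1.14 to 2.98 ± 0.687 CPM (log2 fold change -1.86, SE 0.14, adjusted p = 1.45e-07). Of 8 tested chemokine receptors 4 rose and 1 fell, and 3 fell with the replicate block and 2 without activated platelet replicate 2. Cxcr4, the receptor of CXCL12, stood at 175, 219, 245 and 185 CPM with thrombin and 356, 476, 504 and 387 CPM with activated platelets (log2 fold change 1.06, SE 0.14, adjusted p = 4.39e-05). Ccr1, a receptor of CCL3, rose from 42 ± 3.12 to 72.4 ± 9.21 CPM, and Cxcr3 fell from 4.18 ± 0.479 to 1.72 ± 0.294 CPM (0.79 and -1.28, adjusted p = 2.13e-06 and 1.61e-05).

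Among Toll-like receptors, the sensors of microbial products, and their partners, 3 of 14 tested genes rose and 6 fell, with a median of -0.26. Beside Cd14, Tlr2, the receptor of bacterial lipoproteins, stood at 109, 94.3, 114 and 101 CPM with thrombin and at 298, 391, 324 and 268 CPM with activated platelets, 3.06-fold higher (log2 fold change 1.61, SE 0.11, adjusted p = 3.32e-08). Its dimer partner Tlr1 fell 2.14-fold, from 33.4, 38.4, 41.2 and 36.9 CPM to 16.6, 17.9, 18.7 and 16.8 CPM (log2 fold change -1.10, SE 0.094, adjusted p = 3.89e-07). Tlr13, a sensor of bacterial ribosomal RNA, fell from 476 ± 47.2 to 278 ± 25.2 CPM (log2 fold change -0.77, adjusted p = 1.91e-05). Tlr4, the lipopolysaccharide receptor that CD14 serves, fell from 198 ± 6.76 to 155 ± 6.21 CPM (log2 fold change -0.35, adjusted p = 5.97e-05). Co-receptor and receptor transcripts thus moved in opposite directions. Of 13 tested TREM and C-type lectin receptors 6 rose and 2 fell, with a median of 0.25, and 3 rose when thrombin replicate 1 or activated platelet replicate 3 was left out. Clec4e, the lectin Mincle that senses damaged cells and mycobacterial glycolipid, rose from 16.1 ± 1.47 to 46.5 ± 6.07 CPM (log2 fold change 1.53, SE 0.10, adjusted p = 1.5e-08). Clec7a, the beta-glucan receptor Dectin-1, fell from 541, 835, 712 and 563 CPM to 336, 497, 428 and 343 CPM (log2 fold change -0.72, adjusted p = 0.00487). The lectin Clec10a fell from 2.49 ± 0.623 to 0.974 ± 0.281 CPM (log2 fold change -1.35, adjusted p = 0.00405).

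Prostaglandin E2 signals through cAMP in macrophages, and genes of both steps changed. Of 15 tested genes of prostaglandin synthesis and reception 4 rose and 4 fell (5 and 7 with the replicate block), and 2 rose when thrombin replicate 2 or 3, or activated platelet replicate 1 or 4, was left out. Beside Ptgs2, the receptor gene Ptger2 rose from 21 ± 1.49 to 35 ± 4.02 CPM (log2 fold change 0.74, SE 0.093, adjusted p = 2.32e-05). Ptger4, a receptor for the same prostaglandin, fell from 28 ± 1.26 to 15.9 ± 2.68 CPM (log2 fold change -0.82, SE 0.10, adjusted p = 1.07e-05). Hpgds, the synthase of prostaglandin D2, stood at 248, 260.5, 262 and 235 CPM with thrombin and 124, 126, 132 and 131 CPM with activated platelets, 1.96-fold lower (log2 fold change -0.97, SE 0.059, adjusted p = 1.03e-08). Genes of the cAMP response rose in 11 of 19 tested cases and fell in 2, with a median of 0.47. Pde4d, a cAMP-degrading phosphodiesterase, stood at 4.17, 3.58, 3.78 and 4.34 CPM with thrombin and 14.5, 12.2, 14.9 and 17.9 CPM with activated platelets (log2 fold change 1.91, SE 0.12, adjusted p = 2.2e-08). Pde4b and Pde7b, of the same enzyme class, rose by 1.32 and 0.83, and Crem, a cAMP-induced transcription factor, rose from 9.74 ± 0.705 to 22.3 ± 2.75 CPM (log2 fold change 1.19, adjusted p = 5.09e-07). Adcy9, an adenylyl cyclase that makes cAMP, fell from 42.6 ± 4.83 to 23.7 ± 3.05 CPM (log2 fold change -0.85, adjusted p = 1.21e-05). The second member that fell, Rapgef3, had a log2 fold change of -0.64 (adjusted p = 0.0222) and did not pass without thrombin replicate 2 (-0.58) or 4 (-0.56) or activated platelet replicate 1 (-0.49).

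Receptors, transporters and enzymes for the nucleotides and the serotonin that platelets release made a list of 18 tested genes, of which 9 rose and 4 fell, with a median of 0.44. Some of its members are themselves platelet transcripts: P2rx1, an ATP-gated channel of platelets, was close to 0 with thrombin (0.0401, 0.0385, 0.132 and 0.226 CPM) and at 1.49, 2.22, 2.55 and 1.51 CPM with activated platelets (4.08 on the log2 scale, and 4.75 without thrombin replicate 4). The ADP receptor P2ry1, also on the platelet list, fell from 10.4, 12.3, 7.48 and 8.15 CPM to 2.27, 2.67, 2.55 and 2.09 CPM (log2 fold change -2.0, SE 0.21, adjusted p = 4.7e-06). P2rx7, the ATP-gated channel that triggers the inflammasome, fell from 151 ± 11 to 117 ± 11.5 CPM (log2 fold change -0.37, adjusted p = 0.002). Adora2b, a receptor of the adenosine that CD73 makes, rose from 3.24 ± 0.709 to 6.42 ± 0.589 CPM (log2 fold change 0.98, adjusted p = 0.000168).

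Growth factor genes had a median of 1.01, with 10 of 18 tested members higher and 4 lower. Beside Vegfa and Lif, Pdgfa, a chain of platelet-derived growth factor, rose from 27.9, 25.3, 24.3 and 30.8 CPM to 70, 65.9, 65.9 and 70.7 CPM (log2 fold change 1.33, SE 0.074, adjusted p = 4.24e-09). Hbegf, a ligand of the EGF receptor, rose from 19.1 ± 3.96 to 76.5 ± 23.6 CPM (log2 fold change 2.0, adjusted p = 2.44e-05). The members that fell were Vegfb (-0.49), Gdf15 (-0.51), Igf1 (-0.59) and Bmp2 (-1.48). Levels of Igf1 were 653 ± 92.6 CPM with thrombin and 433 ± 83.3 CPM with activated platelets. Of 22 tested genes of the TGF-beta response, a growth factor that platelets store, 8 rose and 4 fell (11 and 7 with the replicate block), with a median of 0.099. Tgfbi, a matrix protein named for its induction by TGF-beta, stood at 203, 196, 192 and 209.5 CPM with thrombin and 576, 636, 477 and 555 CPM with activated platelets (log2 fold change 1.49, SE 0.088, adjusted p = 7.63e-09). Ski and Smad7, inhibitors of the pathway that it induces, rose by 0.85 and 0.98. The receptor gene Tgfbr2 and the signal transducer Smad2 fell by smaller amounts (-0.45 and -0.19).

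Matrix and protease genes changed in both directions. For the counts in this paragraph, the share of all tested genes that changed was 25.4%, and 41.6% with the replicate block. On the hyaluronan list 6 of 13 tested genes rose and 2 fell. Beside Has2, Cd44, the hyaluronan receptor, rose from 514 ± 26.2 to 706 ± 32.2 CPM (log2 fold change 0.46, SE 0.064, adjusted p = 6.54e-05). Hyal1, a hyaluronidase, fell from 13.5 ± 2.96 to 8.85 ± 0.239 CPM (log2 fold change -0.61, adjusted p = 0.00241). Of 17 tested proteases and inhibitors 7 rose and 1 fell (10 and 4 with the replicate block), and 4 rose without thrombin replicate 2 or 3 (2 fell without replicate 3). Adam8, a metalloproteinase of leukocytes, stood at 726, 824, 686 and 736 CPM with thrombin and 1392, 1329, 1298 and 1358 CPM with activated platelets (log2 fold change 0.86, SE 0.091, adjusted p = 4.28e-06). Mmp19, a matrix metalloproteinase, rose from 51.5 ± 6.63 to 72.5 ± 8.96 CPM (log2 fold change 0.49, adjusted p = 0.00117). Timp2, an inhibitor of such proteases, fell from 375 ± 24.3 to 324 ± 3.38 CPM (log2 fold change -0.21, adjusted p = 0.00282). Of 19 tested genes of coagulation and fibrinolysis 5 rose and 1 fell (9 and 6 with the replicate block, and 2 fell without thrombin replicate 3). F5, coagulation factor V, rose from 1.44, 2, 2.2 and 2.23 CPM to 8.1, 9.9, 8.91 and 9.53 CPM (log2 fold change 2.21, SE 0.18, adjusted p = 3.06e-07). Factor V is stored in platelets, but the macrophage or platelet origin of this transcript was not tested. F2rl2, a thrombin receptor subunit on the platelet list, was close to 0 with thrombin (0.0709 ± 0.0621 CPM) and at 0.973 ± 0.285 CPM with activated platelets. The member that fell was Pros1, the anticoagulant protein S (69.2 ± 5.46 to 56.2 ± 2.29 CPM, log2 fold change -0.30, adjusted p = 0.00218). Among 18 tested complement genes 4 rose and none fell (7 and 4 with the replicate block, and 2 rises without thrombin replicate 1 or 2 or activated platelet replicate 3). Among them were the receptors of the C5a fragment, C5ar1 (193 ± 15.6 to 329.7 ± 19.6 CPM, log2 fold change 0.77, adjusted p = 1.38e-05) and C5ar2 (15.7 ± 0.949 to 23.1 ± 2.37 CPM, log2 fold change 0.56, adjusted p = 5.97e-05).

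Of 19 tested lipid genes around PPARgamma 3 rose and 5 fell, with a median of -0.17 (5 and 10 with the replicate block), where 11.9% of all tested genes rose and 13.5% fell. Fabp4, a fatty acid chaperone and a known PPARgamma target, stood at 53.1, 88.9, 65 and 46.2 CPM with thrombin and 22.4, 35.5, 25.1 and 13.9 CPM with activated platelets (log2 fold change -1.39, SE 0.28, adjusted p = 0.00154). Lpl, lipoprotein lipase, another such target, fell from 2906 ± 795 to 1312 ± 365 CPM (log2 fold change -1.15, adjusted p = 0.00269). The scavenger receptor Cd36, also induced by PPARgamma, stood at 1576 ± 257 CPM and 1370.0 ± 196 CPM (log2 fold change -0.20, adjusted p = 0.363, and 1.99e-05 with the replicate block, a fall). The lipid droplet genes Hilpda and Dgat1 rose. Hilpda went from 5.89 ± 0.906 to 15.7 ± 2.22 CPM (log2 fold change 1.41, SE 0.13, adjusted p = 6.49e-07) and Dgat1 from 20 ± 1.24 to 28.3 ± 2.79 CPM (log2 fold change 0.50, adjusted p = 5.19e-05). On the list of LXR targets and cholesterol export 5 of 15 tested genes rose and 3 fell (8 and 3 with the replicate block), and 3 rose when thrombin replicate 1, 3 or 4 or activated platelet replicate 2 or 3 was left out. Abca1, the transporter that exports cholesterol, stood at 547, 668, 715 and 525 CPM with thrombin and 1313, 1666, 1524 and 1307 CPM with activated platelets (log2 fold change 1.24, SE 0.12, adjusted p = 1.72e-06). Arl4c, a small GTPase of cholesterol transport, rose from 243 ± 15.2 to 498 ± 24.1 CPM (log2 fold change 1.04, SE 0.069, adjusted p = 2.69e-08). Soat1, which esterifies cholesterol for storage, fell from 540.2 ± 57.1 to 389 ± 24.2 CPM (log2 fold change -0.47, adjusted p = 0.00129). Of 19 tested sterol synthesis genes 1 was higher and 3 were lower (3 and 5 with the replicate block), against 25.4% of all tested genes changed in either direction, or 41.6% with the block. The number of rises was 2 without thrombin replicate 1 or activated platelet replicate 2, and 0 without thrombin replicate 2 or 3 or activated platelet replicate 1 or 4. The falls were small, -0.43 for Dhcr7, -0.28 for Sc5d and -0.26 for Lss. The call for Lss was lost without thrombin replicate 1 (-0.22) or 4 (-0.23) or activated platelet replicate 2 (-0.23), 3 (-0.24) or 4 (-0.21).

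Genes of oxygen sensing and glycolysis rose in 7 and fell in 4 of 20 tested cases, with a median of 0.10. Hif1a, the oxygen-regulated transcription factor, stood at 119, 99.1, 108 and 114 CPM with thrombin and 231, 240.0, 237 and 219 CPM with activated platelets, 2.11-fold higher (log2 fold change 1.07, SE 0.06, adjusted p = 4.9e-09). Pfkfb3, which makes the activator of phosphofructokinase, rose from 34.7 ± 2.39 to 63.9 ± 2.63 CPM (log2 fold change 0.88, SE 0.072, adjusted p = 2.74e-07). Pdk1, a kinase that inhibits pyruvate dehydrogenase, fell from 40.1, 42.5, 42.3 and 41.3 CPM to 20, 19.7, 20.5 and 21.6 CPM (log2 fold change -1.02, SE 0.05, adjusted p = 1.78e-09). Bnip3, a mitophagy receptor, fell from 28.2 ± 1.08 to 22.3 ± 0.999 CPM (log2 fold change -0.34, adjusted p = 3.17e-05). The other members that rose were Eno1, Hk2, Pfkfb4, Slc16a3 and Slc2a1, and the others that fell were Ankrd37 and Pgam1. Pdk1, Bnip3 and Vegfa are all textbook targets of HIF-1, of which the first pair fell and Vegfa rose. The part of HIF-1 in these values was not tested. Of 17 tested genes of insulin and FOXO signalling 1 rose and 5 fell. Sesn1, a stress-induced inhibitor of mTORC1, fell 2.89-fold, from 129.9, 141, 150.5 and 123 CPM to 43.8, 51, 51.4 and 42.1 CPM (log2 fold change -1.53, SE 0.10, adjusted p = 1.38e-08). Pik3r1, a regulatory subunit of PI3-kinase, fell from 96.3 ± 2.55 to 74.4 ± 3.46 CPM (log2 fold change -0.37, adjusted p = 1.68e-05). The member that rose was Trib1, a pseudokinase (24.1 ± 2.46 to 49.2 ± 2.87 CPM, log2 fold change 1.03, SE 0.076, adjusted p = 9.23e-08). Of 16 tested NRF2 targets 6 rose and none fell (9 and 3 with the replicate block). Slc7a11, the cystine importer, rose from 20, 17, 14.5 and 11.3 CPM to 52.5, 64.7, 48 and 36.4 CPM (log2 fold change 1.68, SE 0.21, adjusted p = 2.31e-05). Osgin1, an oxidative stress gene, rose from 15.7 ± 0.542 to 23.1 ± 2.01 CPM (log2 fold change 0.56, adjusted p = 1.45e-05). Hmox1, haem oxygenase 1, stood at 187 ± 21.5 CPM and 173 ± 22.1 CPM (log2 fold change -0.12, adjusted p = 0.527, and 0.0203 with the replicate block, a fall).

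Kinase and phosphatase genes of the MAP kinase pathways split evenly, 5 higher and 5 lower of 19 tested, and 3 rose without thrombin replicate 2 or 3 or activated platelet replicate 4. Dusp5, a nuclear phosphatase of ERK, rose from 2.45, 2.54, 2.46 and 2.64 CPM to 12.4, 8.38, 10.8 and 16 CPM (log2 fold change 2.23, SE 0.19, adjusted p = 3.71e-07). Of the kinases that activate p38, Map2k3 rose from 72.2 ± 4.57 to 117 ± 7.77 CPM (log2 fold change 0.70, adjusted p = 2.17e-06) while Map2k6 fell, as given above. Mapkapk2, a kinase that p38 activates, fell from 208 ± 10.9 to 171 ± 8.41 CPM (log2 fold change -0.28, adjusted p = 0.000224). Of 12 tested Krüppel-like factors, zinc finger transcription factors, 1 rose and 3 fell (5 with the replicate block), with a median of -0.14. Klf2, a factor that restrains myeloid activation, fell from 8.79 ± 0.819 to 4.1 ± 0.811 CPM (log2 fold change -1.10, SE 0.16, adjusted p = 0.00012). Klf6 fell from 453 ± 24.9 to 317 ± 8.06 CPM (log2 fold change -0.51, SE 0.048, adjusted p = 1.19e-06). Klf10, which TGF-beta induces, rose from 50.9 ± 5.24 to 63.1 ± 3.04 CPM (log2 fold change 0.31, adjusted p = 0.0118). Among 14 tested ion channels 4 rose and 5 fell, with 3 falls without thrombin replicate 2 and 2 falls without activated platelet replicate 4. Kcna3, a voltage-gated potassium channel, rose from 4.29, 4.12, 3.87 and 3.77 CPM to 18.7, 20.1, 16.7 and 16.5 CPM (log2 fold change 2.16, SE 0.10, adjusted p = 9.83e-10), opposite to Kcnj2. Trpm7, a cation channel with a kinase domain, fell from 178 ± 6.59 to 154 ± 6.3 CPM (log2 fold change -0.21, adjusted p = 0.00195).

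Genes that define macrophages stayed expressed. Of these, 7 of 17 tested members of the identity list rose and 2 fell (10 and 4 with the replicate block, and 4 rises without thrombin replicate 2). The transcription factor gene Maf fell from 231 ± 28.4 to 147 ± 20.9 CPM (log2 fold change -0.65, SE 0.14, adjusted p = 0.00302), as did Mertk, a receptor for apoptotic cells (228 ± 36.7 to 158 ± 21.7 CPM, log2 fold change -0.53, adjusted p = 0.00936). Csf1r, the M-CSF receptor, stood at 2493 ± 224 CPM and 2809 ± 323 CPM (log2 fold change 0.17, adjusted p = 0.21, and 8.15e-06 with the replicate block, a rise).

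The list of alternative activation markers, genes known from macrophages exposed to IL-4, had 6 rises and 3 falls among 11 tested. Beside Tgm2, Ccl17 rose from 0.299 ± 0.0863 to 1.31 ± 0.186 CPM (log2 fold change 2.12, adjusted p = 1.09e-05). Arg1, arginase 1, rose from 0.146 ± 0.0756 to 1 ± 0.217 CPM (log2 fold change 2.7, adjusted p = 0.000154), and both were very low. Mrc1, the mannose receptor, fell from 296 ± 47.3 to 195 ± 34.1 CPM (log2 fold change -0.60, adjusted p = 0.0252). This call was lost without thrombin replicate 1 (-0.57) or 3 (-0.53) or activated platelet replicate 2 (-0.48). The transcription factor gene Irf4 fell from 1.84 ± 0.414 to 0.787 ± 0.281 CPM (log2 fold change -1.22, adjusted p = 0.0031). Il10, an anti-inflammatory cytokine, was under 1 CPM in every library, at 0.441, 0.5, 0.572 and 0.415 CPM with thrombin and 0.292, 0.139, 0.0359 and 0.137 CPM with activated platelets (log2 fold change -1.61, adjusted p = 0.00415). It was 1 of 2 falls, beside 7 rises, among 15 tested genes of anti-inflammatory feedback. Nfil3, a transcription factor of that feedback, rose from 13.8 ± 1.11 to 20.8 ± 1.47 CPM (log2 fold change 0.59, adjusted p = 2.61e-05) and the inhibitory receptor Cd200r1 fell from 102 ± 9.26 to 73.8 ± 11 CPM (log2 fold change -0.47, adjusted p = 0.00705). Apoptotic cell uptake genes rose in 4 and fell in 6 of 17 tested cases (7 and 8 with the replicate block). Itgb5, an integrin subunit of apoptotic cell binding, rose from 445 ± 23.5 to 659.5 ± 47.8 CPM (log2 fold change 0.57, adjusted p = 3.67e-06), and the lipid transporter Abca7 from 66.3 ± 3.47 to 82.5 ± 6.44 CPM (log2 fold change 0.32, adjusted p = 0.00201). Gas6, a bridging ligand of the MERTK receptor, fell from 231 ± 21.8 to 139 ± 15.2 CPM (log2 fold change -0.73, adjusted p = 0.000112). Dock1, an engulfment factor, fell from 61.1 ± 2.35 to 45.2 ± 3.89 CPM (log2 fold change -0.43, adjusted p = 6.13e-05).

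For the counts of the remaining lists, the share of all tested genes that changed was 25.4%, and 41.6% with the replicate block. Of 16 tested antigen presentation genes 2 rose and 1 fell (4 and 2 with the replicate block, and 1 rise without thrombin replicate 2 or 3 or activated platelet replicate 4). Cd86, a co-stimulatory ligand of T cells, stood at 33.7, 28.9, 41.2 and 49 CPM with thrombin and 81.8, 68.5, 79.2 and 94.9 CPM with activated platelets (log2 fold change 1.09, SE 0.17, adjusted p = 0.000195). Ciita, the master activator of MHC class II genes, fell from 9.08 ± 2.42 to 3.92 ± 1.75 CPM (log2 fold change -1.22, adjusted p = 0.00843). The other rise was that of the ligand Cd80 (log2 fold change 0.52, adjusted p = 0.0273), and it was lost without thrombin replicate 2 (0.43) or 3 (0.52) or activated platelet replicate 1 (0.47) or 4 (0.41). Of 22 tested interferon-stimulated genes 3 rose and 1 fell. The rises depended on which libraries were used: none passed when thrombin replicate 1, 2 or 3, or activated platelet replicate 2 or 4, was left out. Without activated platelet replicate 2, 4 fell. With the replicate block 1 rose and 2 fell. Gbp9, a guanylate-binding protein, fell from 38.7, 37.7, 38 and 40.3 CPM to 13.6, 16.1, 13.4 and 16.1 CPM (log2 fold change -1.38, SE 0.077, adjusted p = 4.45e-09). None of 20 tested lysosome and autophagy genes rose and 4 fell, a list whose count depended on the fit. The falls numbered 2 without thrombin replicate 2 or activated platelet replicate 1 or 4, and with the replicate block 3 genes rose and 12 fell. Tfeb, the master factor of lysosome genes, fell from 57.7 ± 7.27 to 41.7 ± 5.81 CPM (log2 fold change -0.47, adjusted p = 0.00775). Atp6v1h, a subunit of the proton pump, fell from 95.5 ± 5.47 to 79.3 ± 2.98 CPM (log2 fold change -0.27, adjusted p = 0.00304). Of 22 tested cell cycle genes 6 rose and 2 fell (10 and 3 with the replicate block, and 3 rises without thrombin replicate 2). The rises were small, such as those of Mcm6, a subunit of the replicative helicase (96.9 ± 5.16 to 117 ± 7.8 CPM, log2 fold change 0.28, adjusted p = 0.00259) and Rrm2, which makes deoxynucleotides (0.36). The members that fell were Ccnd1, a cyclin (53.8 ± 11.2 to 32 ± 9.45 CPM, log2 fold change -0.75, adjusted p = 0.012), and E2f1 (-0.28). Heat shock genes changed in 2 of 13 tested cases (3 rises and 2 falls with the replicate block), the chaperones Hsph1 (45.8 ± 2.06 to 70.4 ± 4.95 CPM, log2 fold change 0.62, adjusted p = 3.97e-06) and Hspa8 (0.23).

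Zinc transporters carry the metal across membranes and metallothioneins bind it, and their transcripts moved by less than 1 log2 unit. Of 13 tested members of this list, which also holds the metal-sensing factor Mtf1, 4 rose and 5 fell, and 3 fell without thrombin replicate 2. Slc39a14, a zinc and iron importer, rose from 37.1 ± 6.06 to 57.2 ± 12.9 CPM (log2 fold change 0.63, adjusted p = 0.00708), and the exporter Slc30a7 by 0.18 on the log2 scale. Slc39a6, another importer, fell from 87.7 ± 5.75 to 70.8 ± 3.46 CPM (log2 fold change -0.31, adjusted p = 0.000535). Slc30a5, an exporter, fell from 92 ± 6.42 to 74 ± 4.94 CPM (log2 fold change -0.31, adjusted p = 0.000792). Slc39a10 stood at 208, 189, 179.6 and 188 CPM with thrombin and 180.2, 169.9, 155 and 173 CPM with activated platelets and did not pass (log2 fold change -0.17, adjusted p = 0.0994). It passed with the replicate block (adjusted p = 0.0041). Mt2, a metallothionein, was near 1 CPM in both groups (0.979 ± 0.384 and 0.916 ± 0.288 CPM, log2 fold change -0.10, adjusted p = 0.843). Mt1, its neighbour, stood at 15.4, 19.1, 16.8 and 16.9 CPM with thrombin and 14.3, 12.8, 15 and 12.6 CPM with activated platelets (log2 fold change -0.32, adjusted p = 0.0134, and -0.26 with an adjusted p of 0.0513 without thrombin replicate 2).

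**Figure D3:**
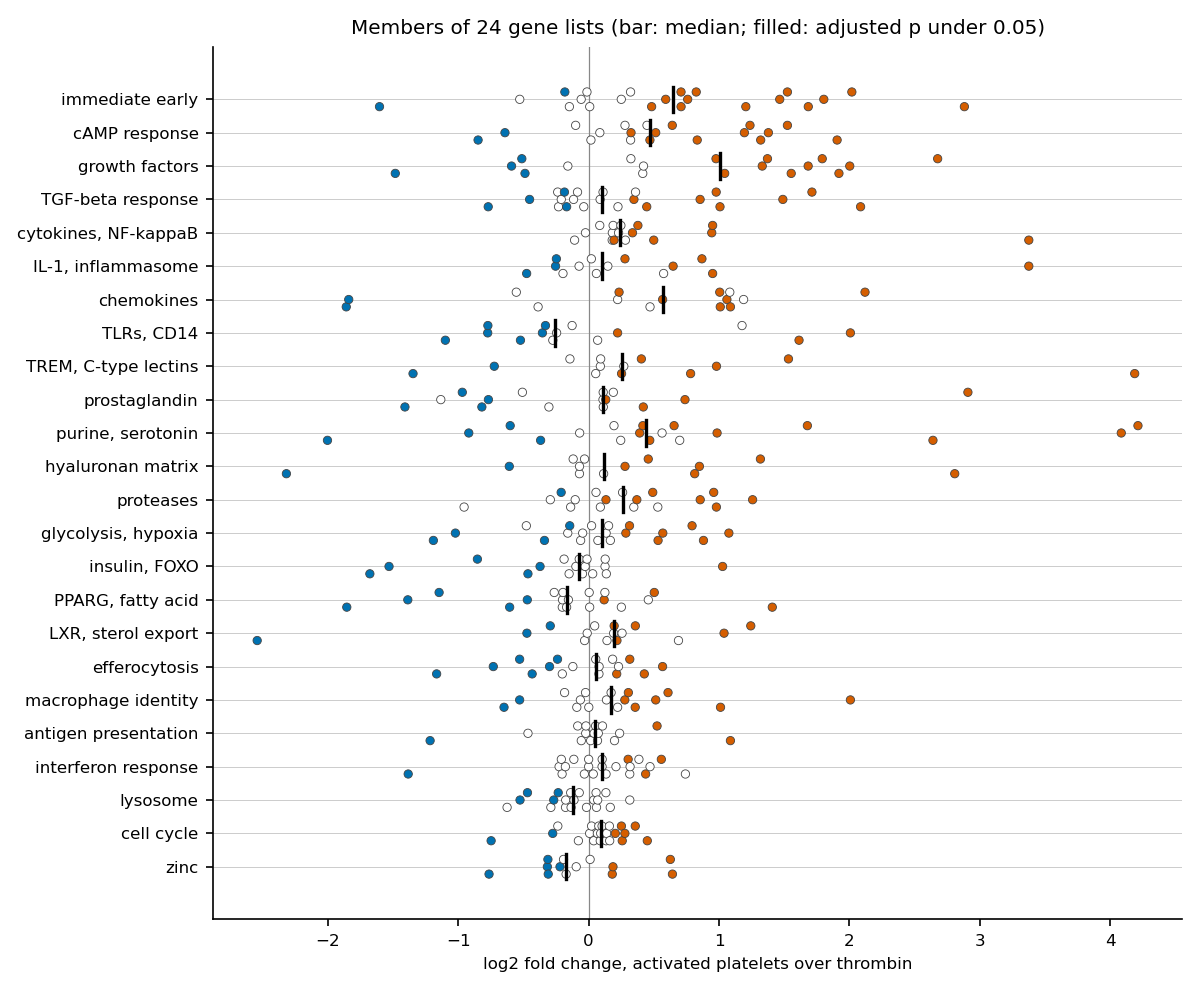
Log2 fold change, activated platelets over thrombin (x), of every tested member of 24 gene lists (y); each point is 1 gene, filled where the adjusted p was under 0.05, and the bar is the list's median. Growth factor and immediate early lists have medians of 1.01 and 0.65, most others lie close to 0, and nearly every list holds genes on both sides.

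Platelet transcripts marked the added cells. Of 23 platelet and megakaryocyte genes 22 passed the filter on low counts. Since many are near 0 without platelets and passed only through the platelet group, they had to differ and are described here without support from a test. Nrgn, a calmodulin-binding protein abundant in platelets, stood at 0.0401, 0, 0.176 and 0.113 CPM with thrombin and at 37.9, 60.6, 47.7 and 38.9 CPM with activated platelets. Ppbp, the platelet chemokine precursor, stood at 0.0802, 0.154, 0.264 and 0.339 CPM and 30.9, 46.3, 35.6 and 30.1 CPM. The fitted value of Nrgn, 9.09, was 9.68 without thrombin replicate 3. Gp9, a subunit of the von Willebrand factor receptor, had 921 counts with activated platelets and 0 with thrombin over the 4 libraries of each group, at least 263-fold higher when 3 counts over the group are set as the floor. Alox12, the platelet lipoxygenase, had 922 counts against 0, at least 264-fold higher. Gng11, a G protein subunit, rose from 7.19 ± 1.87 to 40.9 ± 5.24 CPM. Not every gene on the list is a clean marker in this culture: Pf4, which encodes platelet factor 4, was already at 207, 190.4, 205 and 198 CPM with thrombin alone and at 279, 241, 236 and 238 CPM with activated platelets (log2 fold change 0.31, SE 0.068, adjusted p = 0.00283). P2ry1 and Rgs18 fell, and Vwf and Trpc6 did not pass. Together the 23 platelet and megakaryocyte genes took 0.034% ± 0.00143 of counts with thrombin and 0.0548% ± 0.0043 with activated platelets (SD, n = 4), 1.61 times as much. With Pf4 left out the ratio was 2.14. All 4 activated platelet libraries lay above all 4 thrombin libraries, which the addition of platelets fixed, so no test is given. With resting platelets this share was 0.0357% ± 0.00215 and with vehicle 0.0332% ± 0.0029.

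Red cell and mitochondrial transcripts accompanied the platelet transcripts. Hba-a1 and Hba-a2, near-identical copies of alpha globin whose reads the counting could have split, had 704 and 440 counts with activated platelets and 0 with thrombin, which is at least 201-fold and at least 126-fold higher by the same floor. Erythroid genes together took 0.000157% of counts with thrombin and 0.00114% with activated platelets, 7.31 times as much, without overlap, again with no test, since the globins carry the difference. Of the 10 genes of the erythroid list 3 passed the filter on low counts, both globins and Epor, the erythropoietin receptor, which fell from 1.49 ± 0.45 to 0.736 ± 0.326 CPM (log2 fold change -1.01, adjusted p = 0.0417). The call for Epor was lost without thrombin replicate 1 (-1.05), 3 (-0.80) or 4 (-1.02) or activated platelet replicate 1 (-0.86), 2 (-0.92) or 4 (-0.93). The mitochondrial ribosomal RNAs, looked at after their values were seen, rose as well. The value of mt-Rnr1 went from 141, 115, 139.5 and 96.6 CPM to 488, 683, 528 and 463 CPM (log2 fold change 2.13, SE 0.18, adjusted p = 3.64e-07) and that of mt-Rnr2 from 348 to 1179 CPM on average (log2 fold change 1.76, adjusted p = 1.1e-06). For Nrgn, Ppbp and mt-Rnr1 alike, replicate 2 was the highest of the 4 activated platelet libraries. Platelets hold mitochondria, but the part of platelet RNA in the mitochondrial values was not tested. Shares of the other cell types overlapped between the groups. With the libraries paired by replicate number, the stromal, lymphocyte and dendritic cell shares were lower with activated platelets in 4 of 4 pairs, the mast cell share was higher in 4 of 4 and the neutrophil share in 3 of 4. A paired exact test of 4 pairs cannot go below p = 0.125. Neutrophil genes took 0.00773% of counts with thrombin and 0.0107% with activated platelets (exact permutation p = 0.229, and 0.457 adjusted over the 8 marker lists), and stromal genes 0.509% ± 0.174 and 0.486% ± 0.18 (exact permutation p = 0.714, also after adjustment). Among 10 tested stromal and endothelial markers 1 rose (2 rose and 4 fell with the replicate block), Pecam1, from 1.58 ± 0.701 to 7.62 ± 2.19 CPM (log2 fold change 2.26, adjusted p = 0.000729), an adhesion molecule that platelets and leukocytes also carry. Lymphocyte genes took 0.00313% of counts with thrombin and 0.547 times as much with activated platelets (exact permutation p = 0.0571, adjusted 0.152). Of 3 tested members 1 fell (3 with the replicate block), Ighm, from 16.8 ± 4.56 to 4.93 ± 1.81 CPM (log2 fold change -1.77, adjusted p = 0.000457). The only neutrophil gene of 8 tested that rose was Cxcr2 (2 genes rose with the replicate block or without thrombin replicate 4), from 0.151 ± 0.0644 to 0.535 ± 0.206 CPM (log2 fold change 1.80, adjusted p = 0.00651). The only mast cell gene of 2 tested that rose was Hdc, from 0.241 ± 0.319 to 0.727 ± 0.233 CPM (log2 fold change 1.53, adjusted p = 0.0468). Cxcr2 and Hdc passed the filter on low counts mainly through the activated platelet libraries. Their adjusted p-values are thus no support for a rise. Without thrombin replicate 4 the value of Hdc was 3.08, and its call was lost without thrombin replicate 1 (1.18), 2 (1.22) or 3 (1.34) or activated platelet replicate 2 (1.52), 3 (1.31) or 4 (1.58).

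**Figure D4:**
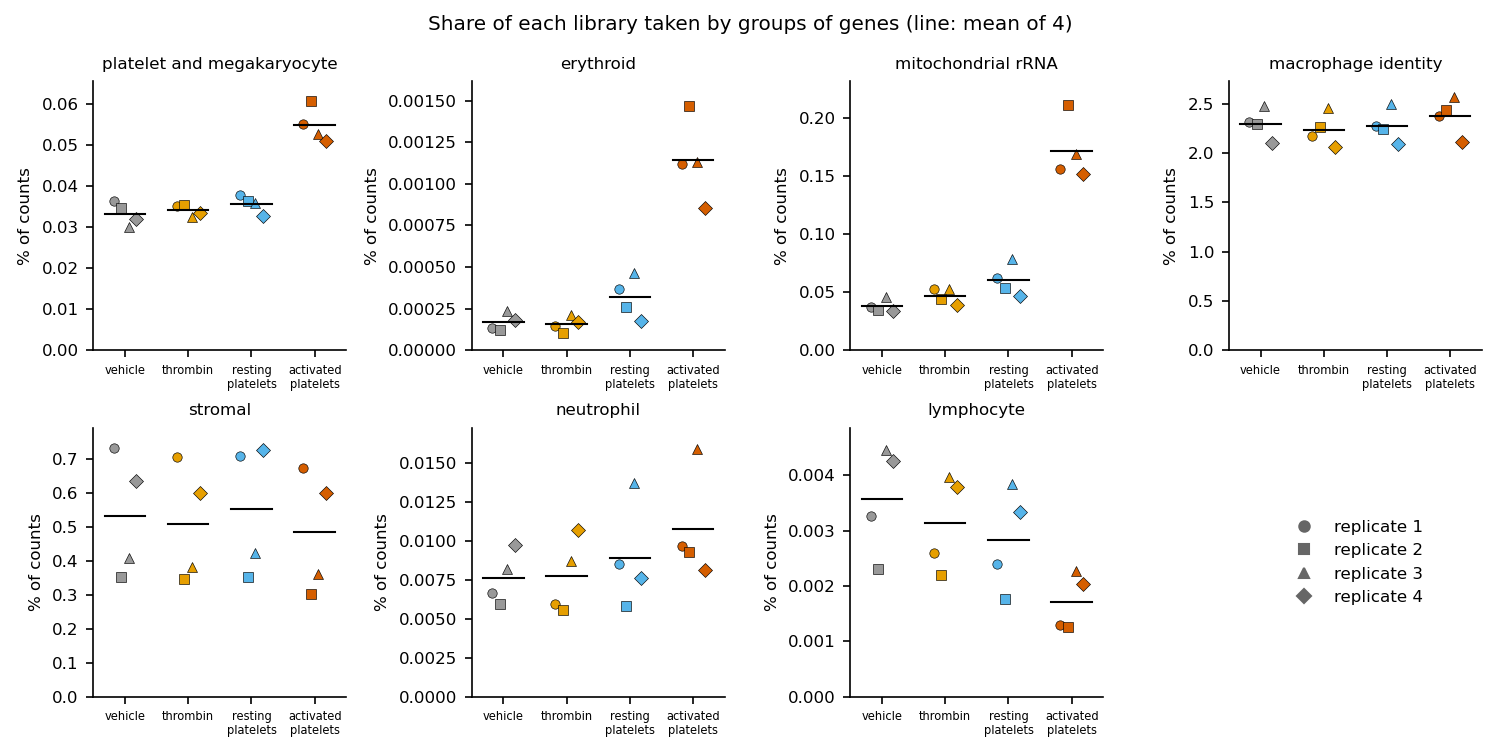
Share of each library's counts (y, percent, from 0) taken by 7 groups of genes in the 16 libraries, by treatment (x); points are libraries, marker shapes give the replicate number and lines the mean of 4. Platelet, erythroid and mitochondrial rRNA shares of the activated platelet libraries lie above all thrombin libraries, while macrophage, stromal, neutrophil and lymphocyte shares overlap.

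The platelet effect in the presence of thrombin was set against the platelet effect without it, resting platelets over vehicle, which shares no library with it. Platelet and red cell transcripts were lower with resting platelets than with activated ones. Nrgn was at 6.24 ± 4.2 CPM with resting platelets against 46.3 ± 10.5 CPM with activated platelets, Ppbp at 4.68 ± 3.27 against 35.7 ± 7.46 CPM and Hba-a1 at 1.12 ± 0.582 against 6.03 ± 1.19 CPM (SD, n = 4). The part of this gap in the differences that follow was not tested. Resting platelets changed 529 genes (3.39% of 15610), 323 higher (2.07%) and 206 lower (1.32%), with 36 rises and 3 falls of at least 2-fold. Of these 529 genes, 338 also changed in the presence of thrombin (63.9% of the first list and 8.54% of the second), 324 of them in the same direction, 203 up and 121 down, and 14 in opposite directions. Among the 324, the change was the larger one with thrombin in 262 cases. Across all 15610 genes the log2 fold changes had a Pearson correlation of 0.653 and a Spearman correlation of 0.332. These are over genes that are not independent replicates and between comparisons whose libraries carry the same replicate numbers. Platelet and red cell transcripts were kept in these counts and correlations. Adding platelets raised such transcripts in both comparisons, for example Nrgn by 9.09 with thrombin and 8.05 without, so their agreement was fixed by the design. The difference between the effects was tested as an interaction: 1550 genes passed (9.93% of tested genes), 712 above 0 (4.56%) and 838 below (5.37%). Of the 3960 genes changed in the presence of thrombin, 1359 (34.3%) also had an interaction. The interaction contains the change by which these genes were selected, so part of this share was built in. Counts of this kind depended on the fit and on replicate 1: with the replicate block the interaction passed for 4536 genes, and without the 4 libraries of replicate 1 for 264. Without these 4 libraries resting platelets changed 58 genes, 81.0% of them higher against 61.1% with all libraries, and with the block 3360 genes, 50.7% of them higher.

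For many of the genes named above the effects differed. Many had been named for a large change in the presence of thrombin. That change enters the difference, so the choice favoured large differences. For Cd14 the resting platelet effect was 0.26 (adjusted p = 0.025), and the effect in the presence of thrombin exceeded it by 1.75 (adjusted p = 9.68e-09). Tgm2 rose by 1.01 with resting platelets, and the difference was 2.34 (adjusted p = 0.000104). Pparg fell by 0.35 on the log2 scale with resting platelets, and the difference was -1.50 (adjusted p = 9.55e-06). Il1b did not pass with resting platelets (0.82, adjusted p = 0.128), and the difference was 2.56 (adjusted p = 0.00126). Differences above 0 were also found for the following genes, with the difference and its adjusted p in parentheses: Trem1 (3.01, 0.00188), Nt5e (2.29, 0.00592), Clu (1.97, 0.00144), F5 (1.88, 0.000619), Vegfa (1.71, 5.41e-05), Tlr2 (1.15, 0.000298), Clec4e (1.18, 0.000104), Fos (1.25, 0.000108), Hif1a (0.85, 2.91e-05) and Tgfbi (1.09, 7.92e-05). Differences below 0, given the same way, were found for Kcnj2 (-2.53, 0.000672), Lrrc14b (-2.56, 0.00012), Ptchd1 (-2.11, 0.00557), Tlr13 (-0.83, 0.00134), Ptger4 (-0.79, 0.00177), Hpgds (-0.78, 4.6e-05), Pdk1 (-0.81, 7.23e-06), Ccl4 (-1.23, 0.0012) and Sesn1 (-1.14, 0.000104). The cAMP list had 8 differences above 0 and 1 below among 19 tested, and the Toll-like receptor list 2 above and 5 below among 14. The immediate early list had 6 above and 1 below among 22. Of all tested genes 4.56% had a difference above 0 and 5.37% one below. The lists were chosen with earlier results of these data known, and such counts of the other lists are not given here. On the cAMP list Pde4d had a resting platelet effect of 0.058 (adjusted p = 0.867) and a difference of 1.85 (adjusted p = 2.03e-05), and Pde7b had -0.38 with resting platelets (adjusted p = 0.0971) and a difference of 1.21 (adjusted p = 0.000499).

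For other genes the difference did not pass in the fit without the block. Gjb2, a gap junction subunit, rose by 1.67 in the presence of thrombin and by 2.0 without it (difference -0.32, SE 0.43, adjusted p = 0.702). Ptger2 rose by 0.74 and 0.55 (difference 0.19, SE 0.13, adjusted p = 0.412), in contrast to Ptger4. Map2k6 fell by 1.88 and 1.32 on the log2 scale (difference -0.56, adjusted p = 0.0696), and this difference passed with the replicate block (adjusted p = 0.016) and without thrombin replicate 4 (-0.63). Lif rose by 1.79 and 1.21 (difference 0.58, adjusted p = 0.306, and 0.0255 with the replicate block). A p that misses the threshold does not show that the effects were alike.

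**Figure D5:**
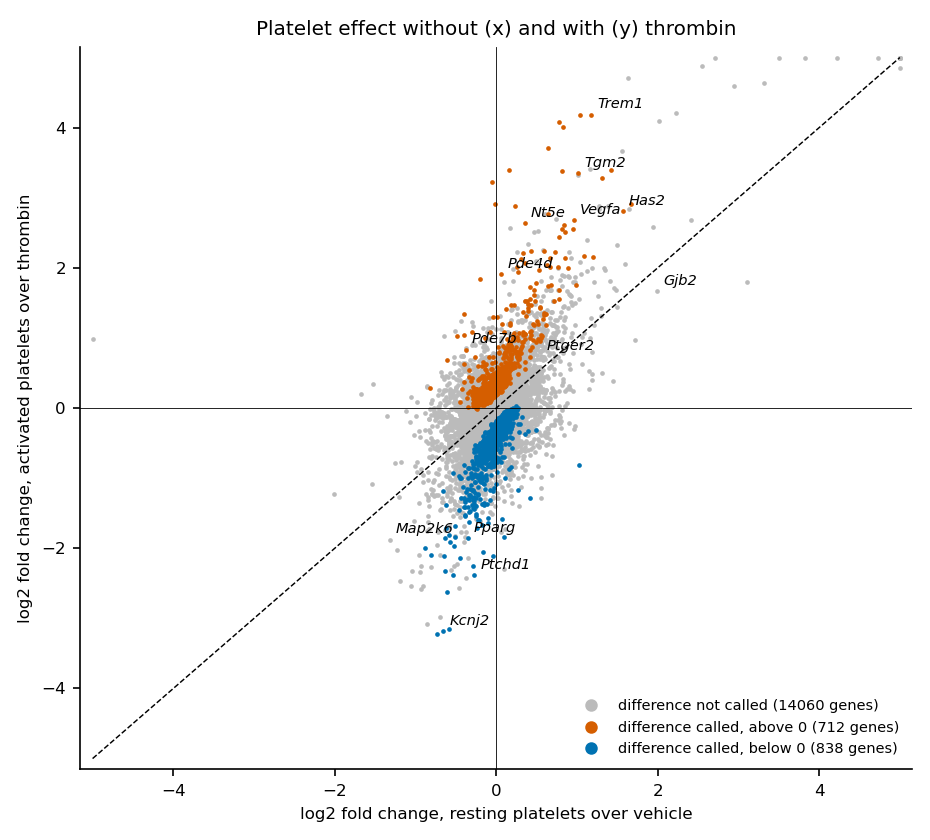
Log2 fold change of resting platelets over vehicle (x) against that of activated platelets over thrombin (y) for the 15610 tested genes, with the line of equal effects dashed; 16 genes beyond 5 log2 units are drawn at the edge, and colours mark the 712 genes with a difference above 0 and the 838 below. Trem1, Nt5e, Pde4d and Vegfa lie above the dashed line on the upper side and Kcnj2, Ptchd1 and Pparg below it on the lower side, while Gjb2 and Ptger2 lie near the line.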

How the data were processed

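RNA was sequenced from 16 libraries of mouse bone marrow-derived macrophages, and 4 libraries with activated platelets were compared with 4 with thrombin. Per the submitters' processing notes, reads were trimmed with cutadapt 2.5, aligned with STAR 2.7.2b and counted with featureCounts 1.6.4, with the builds GRCm39 and mm10 named; coordinates in the file are those of RefSeq on GRCm39. The authors deposited estimated counts per gene, not normalised: 25.5% of positive values were not whole. Values were rounded, which changed 0.00734% of the counts, where whole counts had been assumed. Strand and multi-mapped read settings are not stated in the labels or the file, so antisense, overlapping and near-identical genes are uncertain.

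Of 46320 genes, 15610 passed edgeR's filterByExpr and entered TMM scaling and a robust quasi-likelihood fit over the 4 groups, without a block (R 4.3.3, edgeR 4.0.16), with p-values adjusted over all tested genes at 0.05. The fit was tested on simulated data. Groups came from the labels. The members and the 42 gene lists were chosen with earlier results of these data known. Named genes were, platelet and erythroid genes aside, the 12 largest rises and 12 largest falls that passed, reached 5 CPM in a group mean and had no overlap. To these came, from each list, the 2 risen and the 2 fallen genes of smallest p, and 6 differences of each sign between the platelet effects. Others, such as Egr1, Tlr4, Cd36, the mitochondrial RNAs and the genes with printed promoters, were chosen after their values were seen. Some genes that the rule picked are not reported here. Marker shares are percent of a library's deposited counts, compared by exact two-sided permutation tests, except the platelet and erythroid shares, which are described only.

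Replicate numbers come from the labels, which do not say what they share. The 24 pairs of libraries with the same number correlated at 0.29 to 0.617 in their deviations from group means, other pairs at -0.436 to 0.253, so the numbers were taken to pair the libraries. The block, DESeq2 1.42.0, limma-voom (limma 3.58.1), other scaling, no filter, the 8 libraries alone and leaving out libraries were tried as alternatives. Depth (22554915 to 30602414 counts a library) limits precision most for genes under about 1 CPM. Promoter sequences are from RefSeq on GRCm38.p6, a build other than that of the file, and were matched by numeric gene identifier.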

Additional observations from a re-analysis of the deposited data

Results flagged for a closer look

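Single libraries stood apart from the other 3 of their group in 19 of 364 groups of 4, or 5.22%, where chance gives about 1 in 20. The groups looked at were those of the genes named, the 8 marker shares and the total counts. They share the same libraries and are not independent. In activated platelet replicate 2 the high values were Acod1 at 33.6 CPM, Casp1 at 77.9, Clec4e at 55.5, Gng11 at 48.7, Nlrp3 at 58.7 and Tnf at 22.2 CPM. Hspa8, at 1132.8 CPM in that library, was the lowest of its group. Activated platelet replicate 1 had Pf4 at 279 and Lss at 20.2 CPM, activated platelet replicate 3 had Epor at 1.22 CPM, and activated platelet replicate 4 had Il1rn at 56.5 CPM, the lowest of its group. In the thrombin group the values apart were Lpl at 4088.5, Map2k3 at 79.0 and Clec4e at 13.9 CPM in replicate 2, Has2 at 4.71, Hdc at 0.717 and Mapkapk2 at 192 CPM in replicate 4, Cxcl16 at 335 CPM in replicate 3 and Bmp2 at 2.29 CPM in replicate 1.

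The platelet effect with thrombin differed from that without it, by the interaction test of edgeR, for 25 of the 29 genes whose difference is given, 15 above 0 and 10 below, against 9.93% of all tested genes. Some of the 29 were named because their differences, or their changes in the presence of thrombin, were large, so nothing is read from this count. On the log2 scale the positive differences were 3.01 for Trem1, 2.56 for Il1b, 2.34 for Tgm2, 2.29 for Nt5e, 1.97 for Clu, 1.88 for F5, 1.85 for Pde4d, 1.75 for Cd14, 1.71 for Vegfa, 1.25 for Fos, 1.21 for Pde7b, 1.18 for Clec4e, 1.15 for Tlr2, 1.09 for Tgfbi and 0.85 for Hif1a. The negative ones were -2.56 for Lrrc14b, -2.53 for Kcnj2, -2.11 for Ptchd1, -1.50 for Pparg, -1.23 for Ccl4, -1.14 for Sesn1, -0.83 for Tlr13, -0.81 for Pdk1, -0.79 for Ptger4 and -0.78 for Hpgds.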

How the results depend on the processing

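The count of 3960 genes changed by activated platelets was 3983 with DESeq2's size factors, 4006 with DESeq2, 3953 with limma-voom, 3955 without rounding and 3436 without the filter on low counts. It was 6501 with the replicate block, 6190 with the block in these 8 libraries alone (added after seeing the data) and 3367 in the 8 libraries without it. Leaving out 1 library gave 3220 to 3797, leaving out a replicate number 2422 (replicate 1) to 3331, and with the block 5343 to 5815. The block kept 3957 of the 3960 genes, in the same direction. The resting platelet count of 529 was 3360 with the block, 953 with DESeq2 and 335 without the filter, 208 to 550 without 1 library, 58 (replicate 1) to 395 without a replicate number, and 1978, 2002, 2139 and 3344 without one with the block. Its share of rises, 61.1%, was 75.0% without resting platelet replicate 1. The 1550 differences between the platelet effects were 4536 with the block, 1880 with DESeq2 and 1167 without the filter, 1112 to 1673 without 1 library, 264 (replicate 1) to 1087 without a replicate number, and 2799, 3719, 3722 and 3812 without one with the block. The platelet share ratio of 1.61 was 2.14 without Pf4 and 1.55 to 1.65 without 1 library. Of 165 called genes with printed values, 140 kept their call in all 18 alternatives and none changed direction, and of 25 differences 22 did in 25 alternatives. The cause of these moves was not tested. Depth limits genes near 0 counts, such as Gp9, whose folds are bounds.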

Other observations

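The following 4 genes of iron handling were picked after their values were seen, and no list of such genes was counted or tested. Slc40a1, the only known cellular iron exporter, stood at 354, 397, 528 and 364 CPM with thrombin and 107, 119, 171 and 104 CPM with activated platelets (log2 fold change -1.72, adjusted p = 6.23e-06, edgeR). Ncoa4, the receptor that takes ferritin to the lysosome, fell from 224 ± 31 to 84.4 ± 8.48 CPM (log2 fold change -1.41, adjusted p = 2.21e-07), and Fth1, the ferritin heavy chain, rose from 6056 ± 1037 to 9055 ± 1463 CPM (log2 fold change 0.58, adjusted p = 0.00961). Tfrc, the transferrin receptor, fell from 97.4 ± 2.54 to 80.3 ± 6.07 CPM (log2 fold change -0.28, adjusted p = 0.00128). With resting platelets and no thrombin the log2 fold changes were -0.62 for Slc40a1 (adjusted p = 0.0753) and -0.39 for Ncoa4 (adjusted p = 0.0639). Red cell transcripts were higher in the activated platelet libraries, as given above, and their part in these values was not tested.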
